A study of Mus musculus with 18 samples.

Results

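A group of 6 genes of the red cell membrane and its skeleton was followed in murine erythroleukemia (MEL) cells treated with HMBA: Rhag, Aqp1, Cd47, Slc2a1, Add1 and Add2. They were taken by gene symbol, with every probe that the platform annotation gives one of these names. Each gene had 1 probe, so 6 of the 5974 gene symbols on the array are described. MEL cells are a single established mouse line of virus-transformed erythroid precursors, and HMBA (hexamethylene bisacetamide) is a polar compound that drives them toward hemoglobin-making cells. The 18 two-colour arrays compared total RNA of cells on days 1 to 6 after HMBA with RNA of untreated cells, and arrays of day 0 held untreated RNA in both channels. The titles divide them into series A (days 0 to 6, 1 array a day), series B (days 0, 2, 3, 4, 5 and 6) and 5 further arrays of series B marked SD, on which the channel labels of treated and untreated RNA were exchanged on days 2, 3, 5 and 6. No label gives a strain, a clone, a dose or separate cultures, so p-values cover the spread between single arrays and nothing more, and that spread may be technical.

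The membrane of a red cell is held in shape by a spectrin mesh that is tied at intervals to proteins crossing the lipid layer. Transport proteins in that layer carry water, gas and glucose, surface proteins mark the cell as self, and adducin caps the short actin filaments at the corners of the mesh. Erythroid precursors build this assembly while they mature, adding parts of the skeleton and of the Rh complex in turn. Rhag encodes the Rh-associated glycoprotein, a channel for ammonia that is needed to assemble the Rh complex. Aqp1 is the main water channel of red cells. Cd47 is the surface signal that restrains macrophages through their receptor SIRP alpha, and in human red cells it is associated with the Rh complex. Slc2a1 encodes the glucose transporter GLUT1, which is abundant on human red cells, while adult mouse red cells rely on another glucose transporter. Add1 and Add2 encode the alpha and beta chains of adducin.

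The promoter windows of Rhag, Aqp1, Cd47 and Slc2a1 are shown because these are the genes with enough arrays to be tested. Aqp1 and Cd47 had the 2 most alike profiles among them, and Slc2a1 had negative correlations with all 3 others. Each window holds 250 bases before and 50 after the annotated start (RefSeq, where all 6 symbols matched, build GRCm38.p6, plus strand, written 5′ to 3′). Capitals mark GATAA, read as TTATC on the other strand, the core of sites bound by GATA factors, CACCC, read as GGGTG, the core of sites bound by KLF factors, and TATAAA, read as TTTATA. The positions are chr17:40810899-40811198 for Rhag, chr6:55336049-55336348 for Aqp1, chr16:49855404-49855703 for Cd47 (the first of its 2 annotated starts) and chr4:119108495-119108794 for Slc2a1.
Rhag: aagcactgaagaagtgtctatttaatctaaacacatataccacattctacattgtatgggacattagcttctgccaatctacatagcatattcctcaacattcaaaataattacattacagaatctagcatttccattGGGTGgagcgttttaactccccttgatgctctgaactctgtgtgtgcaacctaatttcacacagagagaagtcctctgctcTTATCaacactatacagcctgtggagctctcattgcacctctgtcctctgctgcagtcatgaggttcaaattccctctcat
Aqp1: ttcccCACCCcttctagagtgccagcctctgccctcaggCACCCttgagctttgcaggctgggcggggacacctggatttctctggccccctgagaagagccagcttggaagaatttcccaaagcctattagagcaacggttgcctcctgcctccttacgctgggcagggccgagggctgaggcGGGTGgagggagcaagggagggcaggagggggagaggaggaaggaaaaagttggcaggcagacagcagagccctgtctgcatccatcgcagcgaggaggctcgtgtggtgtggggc
Cd47: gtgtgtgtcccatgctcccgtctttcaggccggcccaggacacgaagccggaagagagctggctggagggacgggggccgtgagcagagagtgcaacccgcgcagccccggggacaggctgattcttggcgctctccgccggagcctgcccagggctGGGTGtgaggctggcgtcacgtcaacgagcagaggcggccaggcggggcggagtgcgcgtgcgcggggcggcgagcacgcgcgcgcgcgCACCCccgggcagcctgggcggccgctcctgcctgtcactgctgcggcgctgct
Slc2a1: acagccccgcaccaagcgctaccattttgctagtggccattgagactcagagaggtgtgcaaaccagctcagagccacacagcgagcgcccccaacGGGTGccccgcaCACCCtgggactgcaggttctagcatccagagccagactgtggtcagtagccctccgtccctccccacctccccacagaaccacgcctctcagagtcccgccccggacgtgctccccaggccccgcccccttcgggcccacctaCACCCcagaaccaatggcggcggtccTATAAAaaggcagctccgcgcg
Both strands of each window were searched. GATAA was found in 1 of the 6 genes, Rhag, 31 bases before its start, and in 25.4% of 32851 promoter windows of the same length. CACCC was found in 5 of the 6 (all but Add1) and in 57.5% of all windows. CCGCCC, read as GGGCGG on the other strand, a GC box that the capitals do not mark, was found in 5 of the 6 (all but Rhag) and in 35.7% of all windows. TATAAA was found in Slc2a1 alone of the 6, 28 bases after the annotated start, and in 13.6% of all windows. No match of 1 motif overlapped a match of another in the windows of the 6 genes. Rhag also stood at the low end in CpG pairs with 1 in its window, while Aqp1 had 8, Add2 11, Slc2a1 18, Add1 20 and Cd47 35, and the median window had 7. Of all windows 5.43% had fewer CpG pairs than that of Rhag. The Cd47 window is 74.0% G and C and the Rhag window 40.7%. These matches describe letters and say nothing about binding.

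Values are log2 ratios centred on the median of their array, likely treated over untreated. That direction rests on textbook knowledge that HMBA induces globin: on days 3 to 6 of series A the probe Hba-ps3 of the alpha-globin family read 5.73, 4.96, 4.82 and 4.13, against 0.51 on day 0. On the SD arrays it read -4.25, 0.94, -2.78 and -4.20 on days 2, 3, 5 and 6. Over all probes the B and SD arrays of a day still correlated positively (Pearson's r 0.66, 0.58, 0.42, 0.43 and 0.52 on days 0, 2, 3, 5 and 6). The day 0 arrays of series A and B, with untreated RNA in both channels, correlated at 0.73. A reading on 1 array is therefore not a treatment effect by itself, and the part due to treatment was not tested. A ratio gives no level, so the 6 genes cannot be ranked by abundance, and in bulk RNA a change in the share of a cell type and a change in RNA per cell cannot be told apart. Of the erythroid marker list, 6 of the 7 probes with late and day 0 values were higher late, with a median of 0.97 and a range of -0.08 to 3.47, and Slc4a1 had no day 0 value. Megakaryocyte markers were higher for 3 of 4 probes (median 0.23, Itga2b at 2.49) and lymphoid markers for 1 of 2. Myeloid or mast cell markers were higher for 2 of 3 (Mpo at 0.73 and Kit at 0.66), while Mcpt2 was at -3.14. The part of these cell types in the values below was not tested. The arrays held values for 29.2% to 72.0% of the 6868 probes, with the higher shares mostly in series A.

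The 6 genes were measured more often than most probes. Rhag had a value on all 18 arrays, Cd47 and Slc2a1 on 17, Aqp1 on 16, and Add1 and Add2 on 12 each. Their median was 12 of the 13 arrays other than SD, where all probes had a median of 6. A test needed at least 11 of these 13 and 1 day 0 array, which 4 of the 6 genes met, against 17.8% of all probes. Add1 with 9 and Add2 with 10 arrays fell below it, so their values come from the same model without the filter and carry no call.

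**Figure D1:**
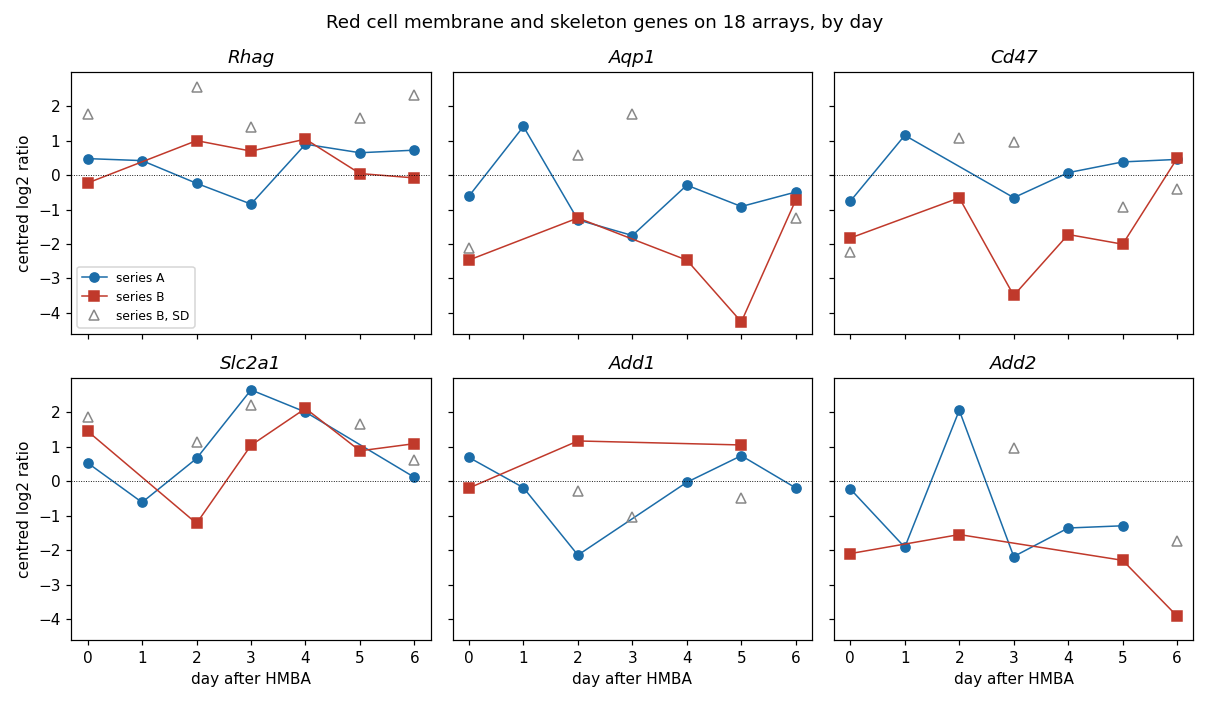
Centred log2 ratios of the 6 genes on each of the 18 arrays (vertical axis) by day after HMBA (horizontal axis); filled circles are series A, filled squares series B and open triangles the SD arrays, and lines join the arrays that have a value. Rhag triangles lie above every filled point, between 1.40 and 2.57, and Aqp1 and Cd47 lie lower in series B than in series A on most days.

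Rhag, the Rh-complex channel, kept within a narrow range on the 13 arrays. In series A it read 0.48, 0.42, -0.24, -0.84, 0.90, 0.65 and 0.73 on days 0 to 6. In series B it read -0.23, 1.00, 0.70, 1.04, 0.05 and -0.08 on days 0, 2, 3, 4, 5 and 6. In each series all 3 late arrays (days 4, 5 and 6) lay above that series' own day 0, but 2 late arrays of series B lay below the A array of day 0, so the groups overlapped. The late mean was 0.55 ± 0.46 (SD, n = 6), against 0.13 ± 0.50 (SD, n = 2) on day 0. Its late difference in the fit was 0.42 (SE 0.71, 95% interval -1.09 to 1.93, adjusted p = 1.00 in limma). It was 0.07 without the B array of day 0 and 0.78 without the A array of day 0. Taken within a series, the late difference was 0.28 in series A and 0.57 in series B. Day 4 had the highest mean (0.97 ± 0.10, n = 2) and day 3 the lowest (-0.07 ± 1.09, n = 2), and the other days lay between 0.13 and 0.42, closer together than the SDs of 0.43 to 0.88 between arrays of 1 day. On the early days the 2 series went opposite ways, with both early arrays of series A below their day 0 and the single one of series B above. The fitted early difference was 0.28 (SE 0.82), and it was -0.08 without the B array of day 0 and -0.03 without the B array of day 2.

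The SD arrays stood apart for Rhag. They read 1.79, 2.57, 1.40, 1.66 and 2.34 on days 0, 2, 3, 5 and 6, each above the highest of the other 13 arrays (1.04). Their day 0 array, which held untreated RNA in both channels, lay among them. The difference of the B and SD arrays of a day divided by 2 was -1.01, -0.79, -0.35, -0.81 and -1.21, where the median absolute value over all probes was 0.44 to 0.56 by day and the 90th percentile 1.00 to 1.54. By size it passed that day's 90th percentile on day 0 alone (1.00), and on day 3 it lay below that day's median (0.56). How many of all probes separate the SD arrays from the others in this way was not counted. The reason was not tested.

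Aqp1, the water channel, was among the more scattered of the 6. In series A it read -0.61, 1.41, -1.30, -1.75, -0.29, -0.91 and -0.49 on days 0 to 6. In series B it read -2.47, -1.24, -2.47, -4.26 and -0.72 on days 0, 2, 4, 5 and 6, with no value on day 3. The A array of day 1 was the single one of the 12 above 0, and the B array of day 5 was the lowest by far. Of the 6 late arrays, 2 lay above and 2 below both day 0 arrays. Late values averaged -1.52 ± 1.55 (SD, n = 6) and day 0 values -1.54 ± 1.31 (SD, n = 2), so both groups were below 0 to nearly the same extent. The fitted late difference was 0.01 (SE 0.92, interval -1.94 to 1.97, adjusted p = 1.00 in limma). It was below 0 without the B array of day 0 (-0.92) or without the A array of day 4, 5 or 6 (-0.35, -0.54 and -0.02), and 0.94 without the A array of day 0. The early difference of 1.61 (SE 1.05, interval -0.63 to 3.85) combined 1.41 on day 1 with a day 2 mean of -1.27 ± 0.04 (SD, n = 2). It was 0.68 without the B array of day 0 and 2.54 without the A array of day 0. The SD arrays read -2.12, 0.60, 1.78 and -1.23 on days 0, 2, 3 and 6.

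Cd47, the self signal, read higher late than on day 0 on most arrays, by a difference that varied with the arrays used. In series A it read -0.76, 1.16, -0.66, 0.07, 0.38 and 0.46 on days 0, 1, 3, 4, 5 and 6. In series B it read -1.83, -0.66, -3.50, -1.72, -2.01 and 0.49 on days 0, 2, 3, 4, 5 and 6. All 3 late arrays of series A and 2 of 3 of series B lay above their own day 0, while the B array of day 5 lay below both day 0 arrays. Late values averaged -0.39 ± 1.16 (SD, n = 6), against -1.29 ± 0.76 (SD, n = 2) on day 0. The fit put the late difference at 0.90, or 1.87-fold, with an SE of 0.90 and an interval from -1.02 to 2.83 (adjusted p = 1.00 in limma). It was 0.37 without the B array of day 0, where Slc2a1 at 0.65 was higher, and 1.44 without the A array of day 0. With all 18 arrays and a term for their orientation it was 0.14, and 0.06 with an offset for the SD arrays added after seeing the data. Day 6 had the tightest pair, 0.47 ± 0.02 (SD, n = 2), and day 3 the widest, -2.08 ± 2.01 (SD, n = 2). On the SD arrays Cd47 read -2.22, 1.09, 0.98, -0.93 and -0.41 on days 0, 2, 3, 5 and 6. All 4 SD arrays with treated RNA were above the SD array of day 0, by 3.31, 3.20, 1.29 and 1.81. For Aqp1 the 3 SD arrays of days 2, 3 and 6 were above theirs too, by 2.71, 3.90 and 0.89. All these arrays had the channel labels exchanged, so the differences cannot be read as a rise under treatment. For Cd47 the difference of B and SD divided by 2, less that of day 0, was -1.07, -2.43, -0.73 and 0.25 on days 2, 3, 5 and 6. The share of all probes with every such SD array above that of day 0 was not counted.

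Slc2a1, the GLUT1 gene, followed another course. In series A it read 0.53, -0.61, 0.66, 2.65, 2.01 and 0.11 on days 0, 1, 2, 3, 4 and 6. In series B it read 1.46, -1.22, 1.04, 2.12, 0.88 and 1.09 on days 0, 2, 3, 4, 5 and 6. The low arrays were A of day 1 and B of day 2, and the highest were A of days 3 and 4 and B of day 4, while B of day 3 lay below B of day 0. By day the means ran 0.99 ± 0.65 (SD, n = 2), -0.61 (n = 1), -0.28 ± 1.33 (n = 2), 1.85 ± 1.14 (n = 2), 2.06 ± 0.07 (n = 2), 0.88 (n = 1) and 0.60 ± 0.69 (n = 2) on days 0 to 6. The means of days 3 and 4 lay closer together than the SD of day 3, and those of days 0 and 6 closer together than either SD. Days 1 and 5 have 1 array each and so no spread, and single days were not tested against each other. Values averaged 0.99 ± 0.65 (SD, n = 2) on day 0, -0.39 ± 0.96 (SD, n = 3) on the early arrays and 1.24 ± 0.83 (SD, n = 5) on the late arrays. The late difference from day 0 was 0.19 (SE 0.80, interval -1.52 to 1.90, adjusted p = 1.00 in limma), and it was -0.27 without the A array of day 0 and 0.65 without the B array of day 0. On the SD arrays Slc2a1 read 1.86, 1.15, 2.23, 1.67 and 0.61 on days 0, 2, 3, 5 and 6.

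Between late and early arrays Slc2a1 had the one difference of the 6 genes whose unadjusted p lay under 0.05. Late values were 1.63 log2 above early ones, 3.10-fold, with an SE of 0.73 and an interval from 0.07 to 3.19 (unadjusted p = 0.0412, adjusted p = 0.730 in limma). The estimate ran from 1.16 to 2.10 when each array was left out in turn where that could be fitted. Its early difference from day 0 was -1.44 (SE 0.89, interval -3.33 to 0.44, adjusted p = 0.999 in limma), with -2.68 in series B and -0.51 in series A. So 1 of 4 tested members had such a p between late and early arrays, where 6.38% of the 1050 probes did. The late and early contrasts share the day 0 arrays, and day 3 belongs to neither.

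The adducin genes were measured on fewer arrays. Add1, the alpha chain, read 0.69, -0.19, -2.14, -0.03, 0.74 and -0.19 on days 0, 1, 2, 4, 5 and 6 of series A. In series B it read -0.20, 1.17 and 1.05 on days 0, 2 and 5. Day 2 held both the lowest and the highest array, and the late and day 0 groups overlapped. The 4 late arrays averaged 0.39 ± 0.60 (SD), against 0.25 ± 0.63 (SD, n = 2) on day 0, while the fit, which gives each day equal weight, put the difference at -0.02 (SE 1.01, interval -2.21 to 2.16). It ran from -0.47 without the B array of day 0 to 0.42 without the A array of day 0. The SD arrays read -0.27, -1.05 and -0.49 on days 2, 3 and 5.

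Add2, the beta chain found mainly in blood cells and brain, had the lowest late mean of the 6. In series A it read -0.22, -1.92, 2.06, -2.19, -1.36 and -1.29 on days 0 to 5. In series B it read -2.10, -1.55, -2.30 and -3.92 on days 0, 2, 5 and 6. Both late arrays of each series lay below their own day 0, by 1.10 on average in series A (-1.10) and 1.01 in series B (-1.01), but the late arrays of series A lay above the B array of day 0. Late values averaged -2.22 ± 1.22 (SD, n = 4), against -1.16 ± 1.33 (SD, n = 2) on day 0. The fitted difference was -1.19 (SE 1.09, interval -3.56 to 1.17), or -0.26 without the A array of day 0 and -2.13 without the B array of day 0. The A array of day 2 was the single array of the 10 above 0. The SD arrays read 0.98 on day 3 and -1.73 on day 6. On the early days the fit put Add1 at -0.58 from day 0 (SE 1.07), or 0.24 without the A array of day 2. Add2 was at 0.33 early (SE 1.16), or -0.61 without the B array of day 0.

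**Figure D2:**
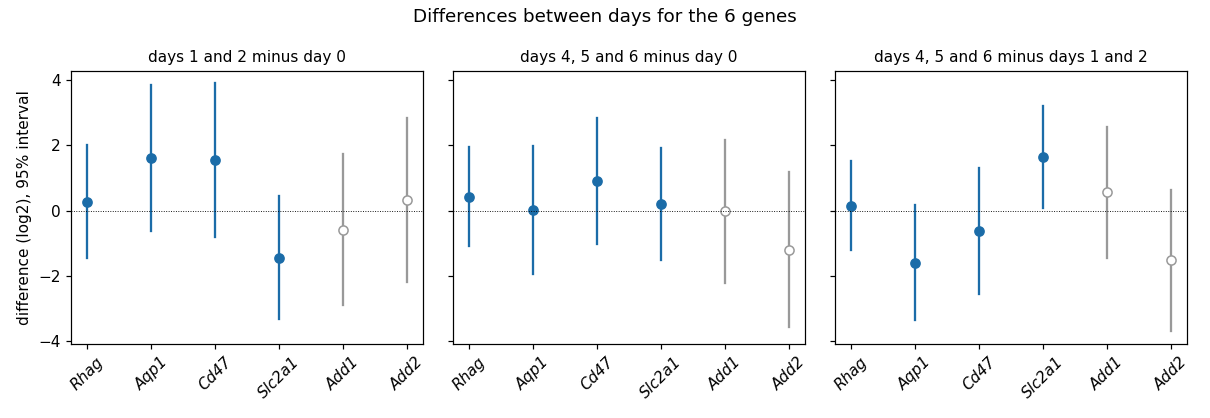
Differences between days for the 6 genes in log2 (vertical axis) with 95% intervals, in 3 panels: days 1 and 2 minus day 0, days 4, 5 and 6 minus day 0, and days 4, 5 and 6 minus days 1 and 2; filled points were tested, and open grey points (Add1, Add2) had too few arrays. Every interval crosses 0 except that of Slc2a1 between late and early days, which runs from 0.07 to 3.19.

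Set side by side, the late differences of the 6 genes had a median of 0.10 (4 higher and 2 lower), and those of all tested probes a median of 0.21. None of the 4 tested genes passed an adjusted p of 0.05 in limma late, where 0% of 1211 probes did, and none had an unadjusted p under 0.05, where 2.31% did. No member had all its late arrays above both day 0 arrays, which 5.5% of 1072 probes had, or all below, which 3.08% had. The early differences had a median of 0.30 over the 6 (0.16 over all tested probes), with Aqp1 at 1.61, Cd47 at 1.54 (1.00 without the B array of day 0) and Slc2a1 at -1.44. Of the 4 tested genes 0 passed the adjusted or the unadjusted threshold early, where 0% and 3.49% of 1060 probes did. Between late and early the median was -0.25 (0.03 over all), with Slc2a1 at 1.63 and Aqp1 at -1.59 (SE 0.83, adjusted p = 0.770 in limma), or -1.04 without the B array of day 5. For Rhag that difference was 0.15, and it was -0.16 without the A array of day 2.

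Slopes over days 0 to 6 were small. Add2 was at -0.31 log2 per day (SE 0.18, interval -0.67 to 0.05), or -0.14 without the B array of day 6, where Aqp1 at -0.16 was steeper. Cd47 was at 0.12, Slc2a1 at 0.11, Add1 at 0.07, Rhag at 0.04 and Aqp1 at -0.10 log2 per day. With single arrays left out the slopes ran from 0.06 to 0.24 for Cd47, 0.05 to 0.21 for Slc2a1, 0.02 to 0.15 for Add1 and 0.0053 to 0.08 for Rhag. The slope of Aqp1 turned to 0.02 when either the A array of day 1 or the B array of day 5 was left out. None of the 4 tested genes passed (adjusted p = 0.997 in limma for each), where 0% of 1221 probes passed the adjusted threshold and 3.36% the unadjusted one.

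How much arrays of 1 day disagreed differed between the genes. The residual SD was 0.67 log2 for Rhag and 0.89 for Slc2a1, below the median of 0.93 over tested probes. It was 1.35 for Cd47, 1.40 for Aqp1, 1.41 for Add1 and 1.71 for Add2, above the upper quartile of 1.21. The main fit has no term for the series, so this SD also holds differences between series A and B. With the series letter as a block the late SE was 0.72 for Rhag, 0.73 for Cd47, 0.75 for Aqp1 and 0.78 for Slc2a1. It was 0.85 for Add2 and 0.91 for Add1. In the main fit the interval of the late difference ran from -1.09 to 1.93 for Rhag and was wider for each of the others. Late changes inside these ranges are not excluded by the fit. A larger difference went uncalled too, as 0 of 1211 probes were called. The globin probe Hbb-b2, with values on all 13 arrays, averaged 2.34 higher late than on day 0. Whether that was due to treatment was not tested.

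Aqp1 and Cd47 moved together from array to array. Over the 11 arrays with both values Pearson's r was 0.90 and Spearman's rho 0.80. It was 0.86 without the 2 arrays farthest out in Aqp1 (B of day 5 and A of day 1), 0.78 over 6 arrays of series A and 0.87 over 5 arrays of series B. Among 766 probes compared with Aqp1, Cd47 ranked 4 by r, after Gapdhs (0.94), Rpl28 (0.92) and Hint1 (0.90). For Cd47 the most alike were Dynll1 (0.95), Stxbp2 (0.94) and Psmb4 (0.92) among 765 probes. Slc2a1 had an r of -0.37 with Rhag, -0.39 with Aqp1 and -0.31 with Cd47, and was most like Vps35 (0.83), Hnrnpa2b1 (0.67) and Cd24a (0.66) among 714. Rhag had an r of 0.26 with Aqp1 and 0.02 with Cd47, and was most like Tug1 and Sema4d (0.81 each) and Ogg1 (0.78) among 1080. These correlations are descriptions over 11 or 12 arrays that share the control RNA, the array design and the series letter.

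**Figure D3:**
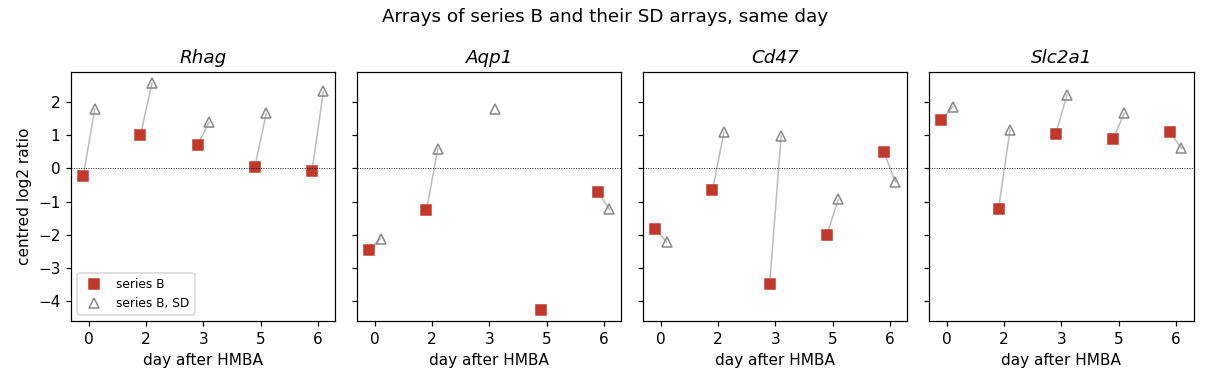
Centred log2 ratios (vertical axis) of the arrays of series B (filled squares) and the SD arrays (open triangles) of the same day (horizontal axis) for Rhag, Aqp1, Cd47 and Slc2a1, with a line joining each pair. The SD array is the higher of the pair on all 5 days for Rhag and on 4 of 5 for Slc2a1, and the widest pair is that of Cd47 on day 3, at -3.50 (series B) and 0.98 (SD).

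The rest of the skeleton list gave few comparable values. Of its 15 genes 9 were on the array with 11 probes, and 6 probes had late and day 0 values, 4 higher and 2 lower with a median of 0.14 (mean of late arrays minus mean of day 0 arrays), against 0.18 over all 4263 such probes and 0.20 over the 6 genes. Actb, the actin of the short filaments, was at 0.68 and 0.18 by its 2 probes, and Epb42, the protein that ties band 3 to the mesh, was at 0.64. Ank1, the ankyrin that anchors band 3 to spectrin, was at -0.58, Tmod3, a cap of the other filament end, at -0.04, and Tpm3, a tropomyosin, at 0.10. In limma 0 of 4 tested probes were called late, and 0 had an unadjusted p under 0.05. Early, 1 of 3 tested probes did, where 3.49% of 1060 probes did. It was the first Actb probe at 2.47 (SE 1.08, adjusted p = 0.999 in limma), while the second Actb probe was at 0.91 (SE 0.95). Add3, the gamma adducin that partners alpha in other tissues, Dmtn and Mpp1 had no day 0 value.

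The membrane list had 17 of 32 genes on the array with 20 probes, of which 13 had late and day 0 values, 9 higher and 4 lower with a median of 0.41. Bsg, the surface chaperone of lactate transporters, was at 2.68, the calcium-gated potassium channel gene Kcnn4 at 1.75 and the hyaluronan receptor gene Cd44 at 1.70. Bsg averaged -0.59 late and -3.27 on day 0. The lowest were a probe of Cd55, an inhibitor of complement, at -1.62, Ermap, an adhesion protein of erythroid cells, at -1.51 and Atp1b2, a chain of the sodium pump, at -0.88. A further Cd55 probe was at 0.43 on 2 late arrays and 1 of day 0, so these 2 probes of the gene disagreed. The last Cd55 probe, with values on 8 of 13 arrays, had no day 0 value. It averaged -1.23 late, and its late minus early difference was -2.14 (SE 0.83). In limma 0 of 1 tested probe (Slc16a1, at 0.19) was called, with 0 at an unadjusted p under 0.05. Among paralogs of the 6 genes and their partners 9 of 11 probes were higher (median 0.43), led by the non-erythroid spectrin gene Sptbn1 at 1.24, and 0 of 3 tested were called, with 0 at an unadjusted p under 0.05. Over all probes 2541 were higher and 1722 lower.

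**Figure D4:**
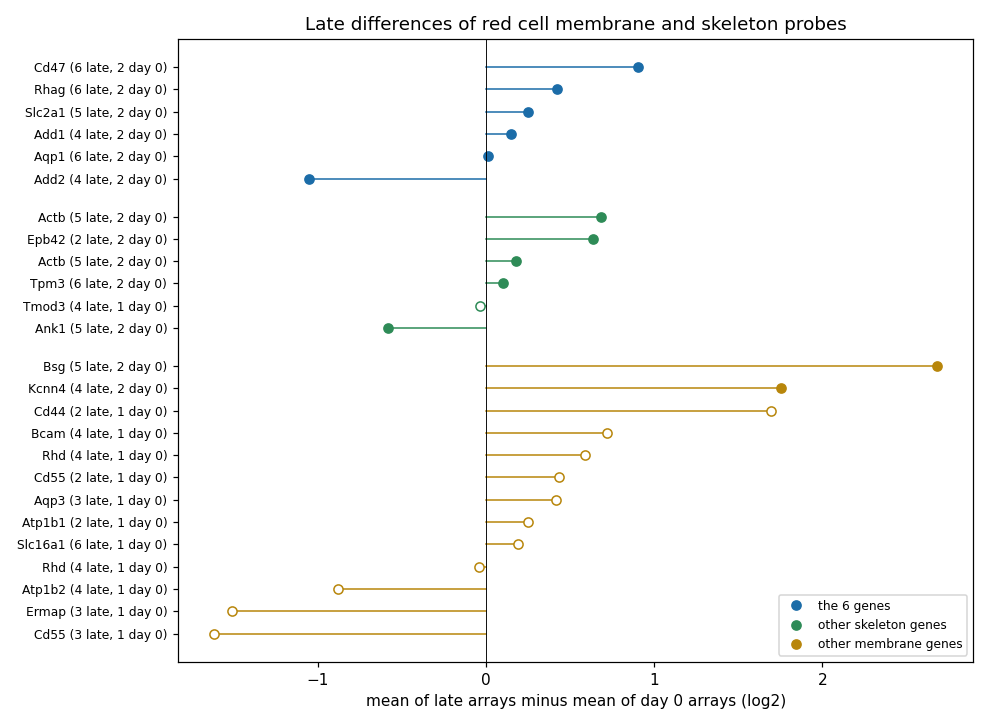
Mean of late arrays minus mean of day 0 arrays in log2 (horizontal axis) for each probe of the 6 genes, of other skeleton genes and of other membrane genes, with the number of arrays in brackets; open points rest on 1 day 0 array. Of the 6 genes Cd47 lies highest at 0.90 and Add2 lowest at -1.05, and the membrane list spans -1.62 (Cd55) to 2.68 (Bsg).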

How the data were processed

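Log2 ratios of 18 two-colour arrays were used as deposited by the authors. Per the labels, days 1 to 6 after HMBA were set against untreated RNA. The log2 scale was recognised from the deposited values, which are the log2 of ratios with 3 decimals. On the SD arrays the decimals were those of an inverse ratio, as if the sign had been turned before deposit. Even so, Hba-ps3 read -4.25, -2.78 and -4.20 there on days 2, 5 and 6, and 0.94 on day 3. The orientation term gave the day effects of SD arrays the opposite sign. The labels do not state what SD means, so the direction of SD readings is not settled. For numerator, dyes, scanner and image analysis, and for any normalization, the sources used here give nothing, and no signal intensity or background was used. Gene names came from the platform annotation (6108 of 6868 probes with 1 symbol, 41 with several, 719 with none). Groups and series letters came from the titles.

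Ratios were centred on their array's median. The main comparison left out the 5 SD arrays and fitted day means over 13 arrays with limma 3.58.1 in R 4.3.3 (moderated tests, Benjamini-Hochberg adjustment over all tested probes, threshold 0.05). Day 1 has 1 array, assumed to vary like the others. A probe was tested with at least 11 of 13 values and 1 day 0 value, which 1221 probes had. Contrasts were late (days 4, 5 and 6) or early (days 1 and 2) minus day 0, late minus early, and a linear trend. The steps were run on simulated data with independent noise on each array. These held no difference between series A and B, so they do not show how the fit behaves where the series differ. Alternatives were no centring, equal spread, quantile normalization, no filter, the series letter as a block, all 18 arrays with an orientation term, SD arrays averaged in, ratios against 0, and each array left out; an offset for SD arrays was added after Rhag had been seen high on them.

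All 6 genes are named. Of the other red cell lists the 3 highest and 3 lowest late differences are named, and for each tested gene the 3 probes most correlated over at least 11 arrays. The genes, lists and tests were chosen with earlier results of these data known.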

Additional observations from a re-analysis of the deposited data

Results flagged for a closer look

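The series differed in direction for Rhag and Add1 on the early days, every array of one series lying on the opposite side of its own day 0 from every array of the other. Rhag was at -0.39 relative to day 0 over the 2 early arrays of series A (days 1 and 2), and at 1.23 on the single early array of series B (day 2). Add1 was at -1.86 in series A over 2 arrays and at 1.37 in series B on 1 array. Each series has a single day 0 array, and the share of all probes with such opposite directions was not counted. The difference between the series was not tested.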

How the results depend on the processing

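Of 332 values of the 4 tested genes under alternatives, 309 kept their sign and 23 reversed. Many of them could not change, so this count is no measure of stability. Dropping the filter, or leaving out an array that a contrast between days does not use, returns the same estimate. Of 160 values of Add1 and Add2, 13 changed sign. None moved by as much as the residual SD of its gene (1.41 for Add1, 1.71 for Add2), a limit too wide to judge slopes per day. The values ran from -0.47 to 0.42 for Add1 late, from -2.36 to -0.26 for Add2 late and from -0.83 to 1.27 for Add2 early. Of 340 values with a test 1 passed the threshold, Aqp1 late against 0 (-1.52, adjusted p = 0.0271 in limma), where its day 0 mean was already -1.54. The late count of called probes was 0 and became 1 with the series letter as a replicate block, 16 with 18 arrays and an orientation term, 1 with an SD offset added and 268 against 0, and ran from 0 to 1 with arrays left out. The trend count became 1 without centring, 1 with the block and 31 with the orientation term. The letters paired arrays in 14 of 15 pairs of days (deviations correlated at 0.03 to 0.39, median 0.255), short of every pair. The main fit has no term for the letter, so its SEs include differences between the series. With the block the late SE was 0.75 for Aqp1, 0.73 for Cd47 and 0.85 for Add2, against 0.92, 0.90 and 1.09 in the main fit. For Rhag it was 0.72 against 0.71. The block put Aqp1 early at 1.23, Add2 early at -0.21 and Slc2a1 late at 0.24, and called no member. With the orientation term Rhag was at -0.54 late, -0.77 early and -0.16 per day, Aqp1 at -0.68 late, and Cd47 at -0.028 and Slc2a1 at -0.024 per day. With the offset Aqp1 was at -0.64 late. Averaging SD arrays put Aqp1 at -0.12 late and Rhag at -0.032 early. Against 0, Cd47 was at -0.39 late. Slc2a1 late was -0.12 with equal spread and -0.13 with quantile normalization. With arrays left out, Aqp1 ran from -0.92 to 0.94 late and from -0.23 to 0.022 per day, Rhag from -0.078 to 0.63 early and from -0.16 to 0.46 between late and early, and Slc2a1 from -0.27 to 0.65 late. Without centring, the median late difference of all probes was 0.46. Contrasts with the early days could not be estimated without the single day 1 array. The cause of these changes was not tested, and the number of arrays limits the precision.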
